A study of Homo sapiens with 12 samples.

Results

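Complement transcripts were followed in HK-2, an immortal line of human kidney epithelium from the proximal tubule, after exposure to recombinant S100A8, S100A9 or S100A8/S100A9. The 9 genes described here were chosen as a list of symbols and matched to Ensembl IDs, out of 20286 gene IDs in the table. They include C3 and CFB of the alternative pathway, C1R, C1S, C4A and C4B of the classical pathway, and the regulators CFI and CD55. The list also holds C1RL, the gene of a C1r-like protease, which was counted here among the classical genes. All 9 passed the filter on low counts and are among the 13512 genes tested. RNA was sequenced in 12 libraries of 4 groups, 3 libraries each: PBS (control), S100A8, S100A9 and S100A8/S100A9. The labels do not say whether S100A8/S100A9 was a complex or a mixture, nor how much S100A9 it held. Its comparison with S100A9 alone therefore does not show the effect of adding S100A8. Every group was wild type by its label, grew in DMEM with fetal bovine serum and was harvested at 48 h, and the recombinant proteins are labelled as given at 5 mg/mL, a unit that could not be checked. A single cell line was used and nothing says that replicates were separate cultures, so p-values reflect the spread among these libraries only, and that spread may be technical.

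Complement is a cascade of plasma and membrane proteins in which serine proteases cleave the next component in turn. In the classical pathway C1r activates C1s, which cleaves C4 and C2. In the alternative pathway factor B binds C3b and forms the enzyme that cleaves more C3, so that both routes meet at C3. Factor I inactivates C3b and C4b, and CD55 (decay-accelerating factor) on the cell surface takes the convertases apart. The liver makes most of the circulating proteins, and tubule epithelium is a known local source of C3 and factor B.

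Library totals lay between 15882193 and 20748334 counts. Of 13 epithelial and tubule markers, 9 had a mean of at least 1 CPM (counts scaled to library totals, here TMM-normalised), among them KRT8 and PAX8. The list includes VIM, which is not specific to epithelium and had the highest mean, 788 CPM. The cadherin genes CDH1 and CDH2 had means of 3.25 and 168 CPM. Markers of the mature proximal tubule were uneven: GGT1 had a mean of 31 CPM, while CUBN, ANPEP, AQP1 and LRP2 had means of 0.577, 0.14, 0.157 and 0.0991 CPM. Among leukocyte markers CD68 was expressed, while PTPRC had a mean of 0.018 CPM and CD14 of 0.279 CPM. The summed level of the 7 leukocyte markers, which CD68 dominates, was 84.1 to 91.5 CPM in control and 80.8 to 101 CPM after S100A9. Hepatocyte markers summed to between 0.698 and 1.87 CPM in every library, and ALB had a mean of 0.0293 CPM.

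Sequence limits what can be said of one pair of members. C4A and C4B lie next to each other on chromosome 6 and encode the 2 isotypes of C4, which differ in a short stretch that sets the chemistry of their thioester. Their coding sequences in GENCODE 29 (GRCh38) are each 5232 bases long and differ at 13 bases, an identity of 99.75%. All of these bases lie between coding positions 2719 and 3856, and the first 2718 bases are identical. The window with the densest differences, 60 bases from coding position 3337 to 3396, is printed 5′ to 3′ with the 5 differing bases in capitals, because only reads over such bases tell the genes apart. It crosses from exon 26 into exon 27, at chr6:31996061-31996215 for C4A and chr6:32028799-32028953 for C4B, both on the plus strand.
C4A: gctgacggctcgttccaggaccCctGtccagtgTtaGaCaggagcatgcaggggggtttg
C4B: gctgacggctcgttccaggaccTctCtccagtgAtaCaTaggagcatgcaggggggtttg

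Position groups the members further. CFB, C4A and C4B lie within 89.77 kb in the class III region of the MHC, and C1S, C1R and C1RL within 121 kb of chromosome 12. C1R (7080199 to 7092607) and C1RL (7089587 to 7109273) overlap by 3021 bp on the same strand. CFB shares 6399 of its 6435 bp with AL645922.1, listed at 0 counts and on the same strand. CFI shares 61306 of its 61486 bp with AC126283.2, also on the same strand, so that CFI counts may have been divided with it. The CFI count was not whole in 7 libraries. In 0 of these did it sum with AC126283.2 to a whole number within 0.011 counts. How the CFI counts were divided was not tested. C1S overlaps EMG1 on its own strand and LPCAT3 on the other, and no source says that counting used strand. C3 (ENSG00000125730) lies on chromosome 19, CFI (ENSG00000205403) on chromosome 4 and CD55 (ENSG00000196352) on chromosome 1. C3 overlaps GPR108 by 649 bp and AC008760.2 by 1357 bp, both on its own strand. Its count was whole in every library.

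Levels were compared between genes only per length, in FPKM as the authors deposited it. In control cells CD55 was highest at 32.5 ± 2.16 FPKM (SD, n = 3), followed by C3 at 16.4 ± 0.682. C1RL at 7.98 ± 0.828, CFB at 7.70 ± 1.18 and CFI at 7.09 ± 0.98 came next and did not differ beyond their spread. C1S stood at 4.34 ± 0.807 and C1R at 2.92 ± 0.749. The C4 pair was lowest, with 0.753 ± 0.139 FPKM for both genes together. After S100A9, C3 stood at 34.2 ± 4.25 FPKM and CD55 at 32.4 ± 1.23, and their order was not resolved, since the C3 libraries ran from 29.57 to 37.96 FPKM, on both sides of CD55.

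**Figure D1:**
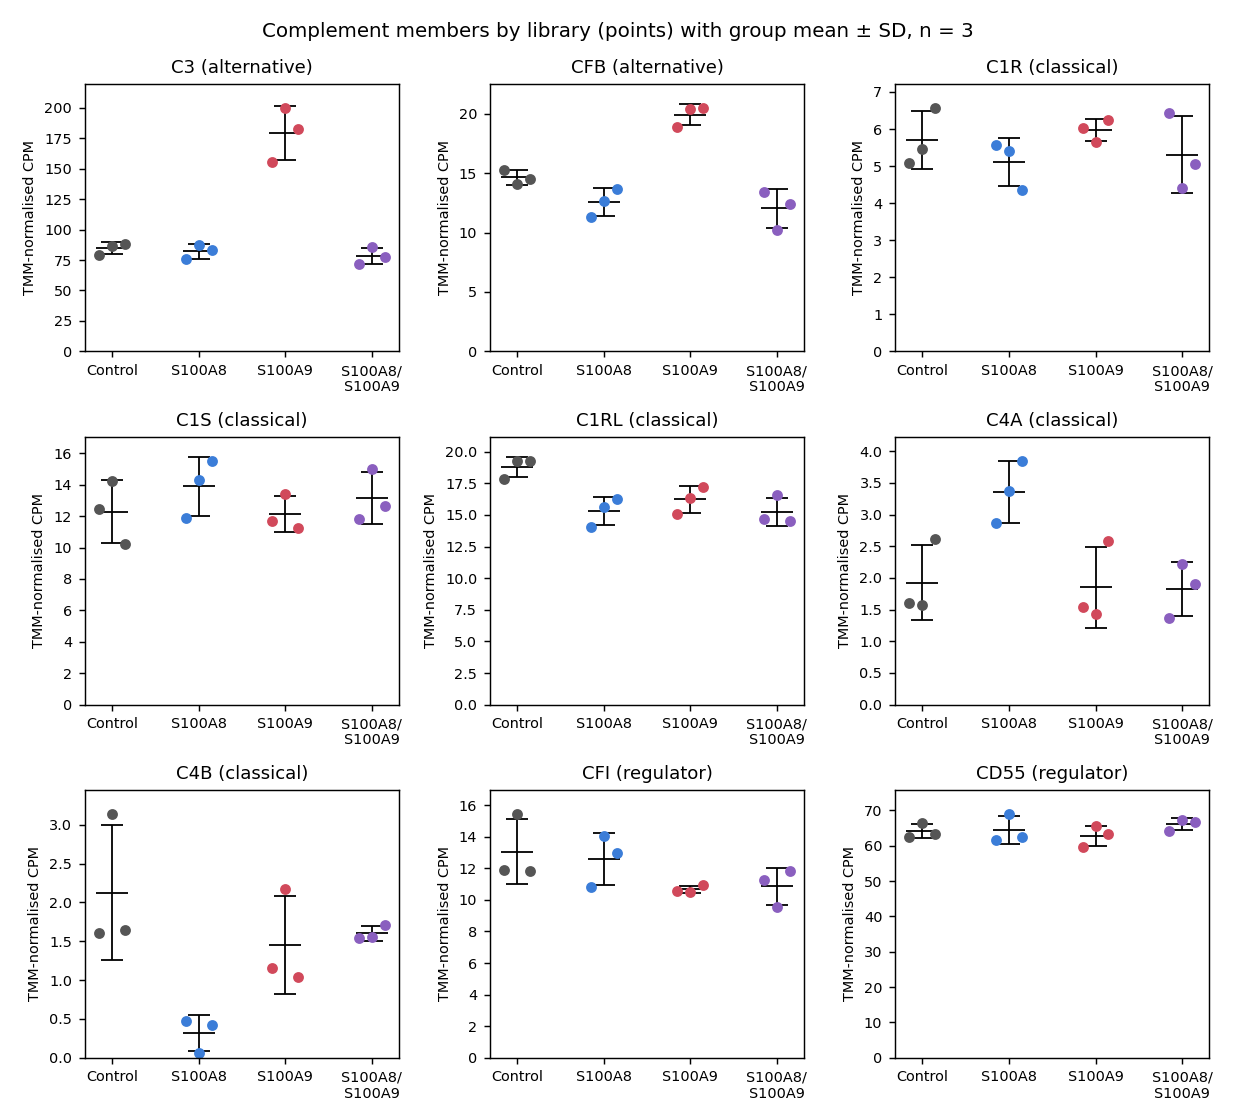
Level of each of the 9 complement genes in TMM-normalised CPM (y axis, starting at 0) by group (x axis). Points are libraries and bars the mean ± SD of 3 libraries. C3 and CFB stand apart after S100A9, C1RL is highest in control, and C4A and C4B lie on opposite sides of control after S100A8.

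In CPM both alternative pathway genes were higher in every S100A9 library than in all others, although CFB did not pass the test against control. C3, the component on which all pathways converge, stood at 79.12, 86.45 and 88.42 CPM in the control libraries and at 155.2, 199.7 and 182.8 CPM after S100A9. The S100A8 libraries had 75.69, 87.69 and 83.36 CPM and the S100A8/S100A9 libraries 72.05, 85.4 and 77.76 CPM. The 3 S100A9 libraries were higher than all 9 others, while the other groups overlapped. The summed level of the 13 epithelial and tubule markers, VIM included, was 2330 to 2390 CPM after S100A9 and 2400 to 2420 CPM in control. The part of this sum in the result was not tested. In bulk RNA, fewer cells with a transcript and less of it per cell cannot be told apart.

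C3 rose 2.12-fold over control after S100A9 (log2 difference 1.08, 95% interval 0.87 to 1.30, adjusted p = 0.00065 in the quasi-likelihood test of edgeR). Direct tests between arms gave a difference of 1.12 from S100A8 (0.91 to 1.34, adjusted p = 0.00047 in edgeR). S100A8/S100A9 lay 1.20 below S100A9 (log2 difference -1.20, interval -1.41 to -0.98, adjusted p = 0.00022 in edgeR). The 3 comparisons share the S100A9 libraries. C3 passed the threshold in all 13 alternatives of each. After S100A8 the difference from control was -0.04 (-0.26 to 0.18), and after S100A8/S100A9 it was -0.11 (-0.34 to 0.11).

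CFB, which encodes the protease subunit of the alternative pathway convertase, had the same order of group means in CPM at a smaller size. The order of S100A8 and S100A8/S100A9 was resolved for neither gene. S100A8/S100A9 minus S100A8 was -0.07 (-0.29 to 0.15) for C3 and -0.06 (-0.27 to 0.16) for CFB. The CFB control libraries stood at 15.29, 14.1 and 14.5 CPM and its S100A9 libraries at 18.9, 20.38 and 20.47 CPM. S100A8 libraries stood at 11.31, 12.68 and 13.7 CPM and S100A8/S100A9 libraries at 13.44, 10.23 and 12.41 CPM. S100A9 lay above every other library, and the 6 libraries of the other arms lay below all 3 controls.

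Against control the CFB difference after S100A9 was 0.45 (95% interval 0.24 to 0.65) and did not pass, with adjusted p = 0.063 in edgeR; it passed in 4 of 13 alternatives. In DESeq2 its adjusted p was 0.046 and over all alternatives it ran from 0.021 to 0.93. The direct comparisons passed: CFB was higher after S100A9 than after S100A8 by 0.66 (0.46 to 0.87, adjusted p = 0.00054 in edgeR). It was lower after S100A8/S100A9 than after S100A9, with a log2 difference of -0.72 (-0.92 to -0.52, adjusted p = 0.00016 in edgeR). Differences from control after S100A8 (-0.22, -0.43 to -0.01) and S100A8/S100A9 (-0.28, -0.49 to -0.06) had adjusted p = 1 and 0.83 in edgeR.

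The scale matters for some members. FPKM per unit of library-scaled count varied 8.46-fold between libraries for C4B, 1.64-fold for C1R and 1.53-fold for CFB, and from 1.02-fold (C4A) to 1.27-fold (C1RL) for the other 6 genes, with C3 at 1.03-fold. On FPKM the CFB groups overlapped, at 7.34, 6.74 and 9.01 in control and 7.64, 9.76 and 8.62 after S100A9. Both direct comparisons missed the threshold with limma on log2(FPKM + 1), at 0.49 (adjusted p = 0.59) and -0.42 (adjusted p = 0.66). C3 passed on that scale as well. Which transcripts lie behind the changing ratio was not analysed here.

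**Figure D2:**
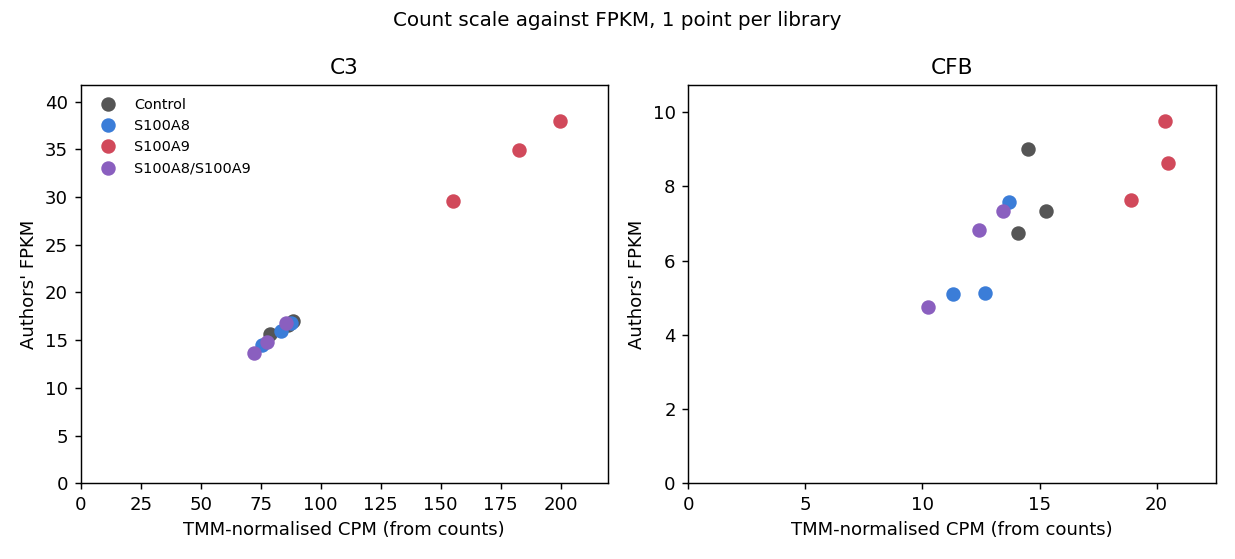
Authors' FPKM (y axis) against TMM-normalised CPM from the counts (x axis) for C3 and CFB, 1 point per library. C3 falls on a line, with the S100A9 libraries apart on both axes; for CFB the S100A9 libraries stand apart in CPM, at 18.9 to 20.47, but overlap control in FPKM.

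The promoter of CFB is shown because its group means in CPM had the same order as those of C3. In FPKM the CFB means of S100A8 (5.94) and S100A8/S100A9 (6.31) stood in the opposite order. RefSeq promoter windows (GRCh38.p14, 250 bases before to 50 after the start) were matched for 5 of the 9 members: CFB, CFI, CD55, C1R (with 2 windows) and C1RL. C3, C4A, C4B and C1S had no entry. Both strands were searched for 4 motifs: the kappaB consensus of NF-kB, the GAS element of STAT factors (TTCNNNGAA), a C/EBP site (TTGCNNAA) and the interferon-stimulated response element (ISRE). In the 300 bases of CFB at chr6:31945845-31946144, plus strand, the capitals mark an ISRE match, a kappaB match and a GAS match, in that order, with no overlap.
CFB: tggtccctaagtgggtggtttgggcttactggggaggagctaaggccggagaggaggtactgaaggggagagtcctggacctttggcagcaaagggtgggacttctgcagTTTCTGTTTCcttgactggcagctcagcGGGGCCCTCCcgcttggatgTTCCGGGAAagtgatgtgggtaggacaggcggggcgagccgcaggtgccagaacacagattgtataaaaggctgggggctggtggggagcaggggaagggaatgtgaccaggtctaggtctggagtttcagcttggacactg
Of 35116 windows of this length, 3.57% held an ISRE match, 11.3% a kappaB match, 7.66% a GAS match and 10.5% a C/EBP match. C1R had C/EBP matches in both windows and a GAS match in 1, C1RL had a GAS and a C/EBP match, and CFI and CD55 had none of the 4. A match describes letters only and shows no bound factor.

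The genes whose 4 group means lay closest to those of C3 were ranked among 11076 tested genes of at least 5 CPM, by the root-mean-square distance of centred log2 CPM. The 5 nearest were the chemokine gene CXCL8 (0.099), the superoxide dismutase SOD2 (0.142), the cytokine IL6 (0.200), PDZK1IP1 (0.201) and the chemokine gene CXCL2 (0.211). For CFB they were the matrix protease ADAMTS9 (0.096), the epithelial transcription factor ELF3 (0.097), PDZK1IP1 (0.10), B4GAT1 (0.114) and the kinase PIM2 (0.121). PDZK1IP1 was on both lists. The distances describe 4 means each and carry no test.

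None of the 5 classical pathway genes passed the test against control after S100A9, although C1RL lay below control in all 3 libraries. The first protease, C1R, stood at 5.077, 5.454 and 6.568 CPM in control and 6.032, 5.653 and 6.239 CPM after S100A9, with overlapping groups. Its partner C1S stood at 12.43, 14.23 and 10.2 CPM and 11.7, 13.43 and 11.25 CPM, also overlapping. The log2 differences were 0.07 (95% interval -0.26 to 0.39) for C1R and -0.01 (-0.27 to 0.25) for C1S. After S100A8 they were -0.16 (-0.49 to 0.17) and 0.18 (-0.08 to 0.44), and after S100A8/S100A9 -0.09 (-0.42 to 0.23) and 0.10 (-0.16 to 0.36). Neither gene passed in any of the 6 comparisons in edgeR.

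C1RL encodes a C1r-like protease. Its control libraries stood at 17.86, 19.24 and 19.26 CPM, above all 9 treated libraries. These were 14.06, 15.64 and 16.24 CPM for S100A8, 15.09, 16.37 and 17.25 CPM for S100A9 and 14.72, 16.55 and 14.52 CPM for S100A8/S100A9. The log2 differences from control were -0.29 (-0.48 to -0.11), -0.21 (-0.39 to -0.03) and -0.30 (-0.49 to -0.12), from the same 3 control libraries. None passed, with adjusted p = 1, 0.78 and 0.63 in edgeR, and in FPKM the S100A9 libraries overlapped control. The summed level of 5 fibroblast markers, most of it COL1A1, was also higher in control than in every treated library: 10.1 to 10.4 CPM in control, 7.84 to 9 CPM with S100A8, 7.46 to 9.65 CPM with S100A9 and 7.44 to 9.02 CPM with S100A8/S100A9. The defining markers COL3A1, PDGFRA and DCN had means of at most 0.0757 CPM, and the part of these genes in the C1RL difference was not tested. Between arms the differences of C1RL were 0.08 or less in either direction except S100A8/S100A9 against S100A9, at -0.10 (-0.28 to 0.09).

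Reads of C1RL and C1R were divided in the deposited counts. In all 9 libraries where the C1R count was not whole, it summed with C1RL to a whole number within 0.011 counts. Summed, the pair stood at 24.5 ± 1.46 CPM in control cells and 22.2 ± 1.20 CPM with S100A9 (SD, n = 3). The S100A8 arm had 20.4 ± 0.723 CPM and the S100A8/S100A9 arm 20.6 ± 0.852 CPM. The difference of the sum from control was -0.26 (-0.42 to -0.10) after S100A8 and -0.25 (-0.41 to -0.10) after S100A8/S100A9, with all treated libraries below control. After S100A9 it was -0.14 (-0.29 to 0.01) and the libraries overlapped. The sum did not pass in any comparison (adjusted p = 1, 0.63 and 0.86 in edgeR).

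**Figure D3:**
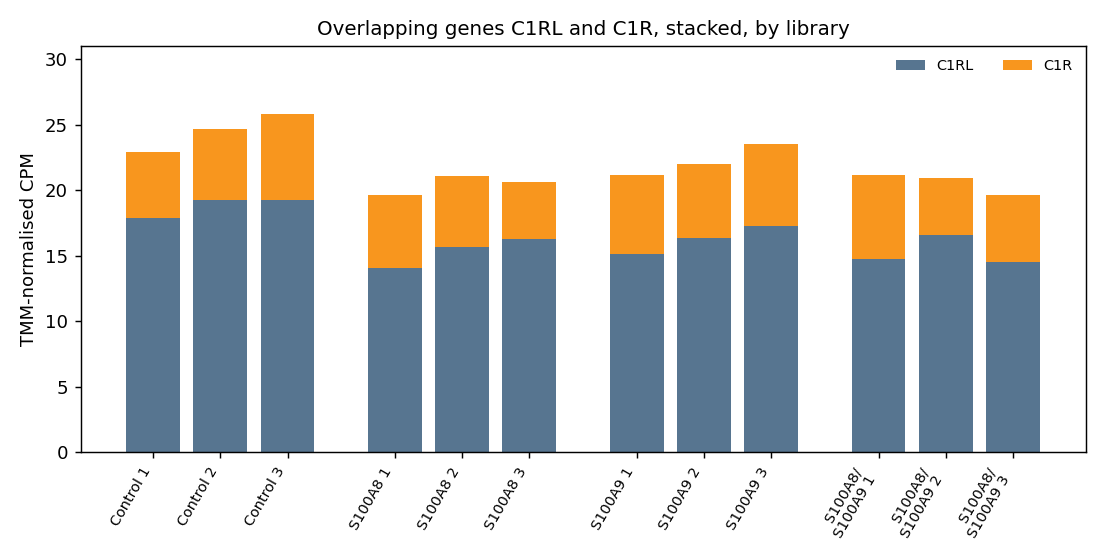
TMM-normalised CPM (y axis, starting at 0) of C1RL and C1R stacked for each of 12 libraries (x axis). The stacked sum runs from 22.93 to 25.83 CPM in control and from 19.58 to 21.15 CPM in the S100A8 and S100A8/S100A9 libraries.

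C4 is the substrate of C1s, and its 2 genes gave 46 to 75 counts per library together. In 9 of the 10 libraries where the C4A count was not whole, it summed with C4B to a whole number within 0.011 counts. In S100A8 replicate 3 the sum was 73.6, so counts may also have been shared outside the pair. C4A overlaps STK19 by 798 bp on the same strand, and the part of STK19 was not tested. C4A stood at 1.605, 1.567 and 2.608 CPM in control and at 2.866, 3.373 and 3.845 CPM after S100A8. C4B stood at 1.605, 3.134 and 1.64 CPM in control and at 0.4779, 0.05815 and 0.4272 CPM after S100A8, the last from 7.86, 1 and 7.36 counts. Neither gene overlapped between these groups, and they differed from control in opposite directions. C4B passed (log2 difference -2.73, 95% interval -3.65 to -1.80, adjusted p = 0.033 in edgeR) and C4A did not (0.79, 0.25 to 1.32, adjusted p = 1 in edgeR). On log2(FPKM + 1) C4B differed by -0.35 with limma (adjusted p = 1), a scale that shrinks differences between low values. The S100A8 libraries of C4B had 0.09, 0.09 and 0.08 FPKM, so replicate 2, with 1 count, had the FPKM of replicate 1.

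As a sum, the C4 genes stood at 4.05 ± 0.765 CPM in control cells, and at 3.68 ± 0.513 CPM in the S100A8 arm (SD, n = 3). The S100A9 arm had 3.31 ± 0.532 CPM and the S100A8/S100A9 arm 3.43 ± 0.457 CPM. The groups overlapped in all 6 comparisons. The summed difference from control was -0.13 (-0.52 to 0.26) for S100A8, -0.29 (-0.68 to 0.11) for S100A9 and -0.24 (-0.63 to 0.15) for S100A8/S100A9. C4B was also called higher after S100A9 than after S100A8 (2.20, 1.23 to 3.16, adjusted p = 0.045 in edgeR), where the sum gave -0.15 (-0.55 to 0.24). Both calls of C4B ended with the sum, and the call against S100A8 also ended with any 1 of its 6 libraries left out (adjusted p up to 0.34 in edgeR).

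The C4A share of the pair was 50%, 33.3% and 61.4% in the control libraries, and 85.7%, 98.3% and 90% after S100A8. After S100A9 it was 57.2%, 39.6% and 71.4%, and after S100A8/S100A9 47.1%, 58.8% and 52.6%. The S100A8 libraries lay above all 9 others. The difference of 43.1 percentage points from control had p = 0.1 in a two-sided exact permutation test, the smallest that 3 against 3 libraries can give, and 0.2 after adjustment over 6 comparisons.

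The exact (Clopper-Pearson) 95% binomial intervals of the share, which treat each read as told apart, ran from 22.9% to 72.4% over the control libraries and from 73.3% to 100% after S100A8. In 8 of 12 libraries the deposited split equalled, within 0.01 counts, a fraction with a denominator of at most 19. The fraction was 6 in 7 for S100A8 replicate 1, 9 in 10 for S100A8 replicate 3, and 4 in 7 and 5 in 7 for S100A9 replicates 1 and 3. How many reads covered the differing bases is not known, so the binomial intervals may be too narrow. The call of C4B against control ended without control replicate 2 (-2.35, adjusted p = 0.48 in edgeR). It also ended without S100A8 replicate 1 (-3.15, 0.086), replicate 2 (-2.23, 0.43) or replicate 3 (-2.95, 0.16).

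**Figure D4:**
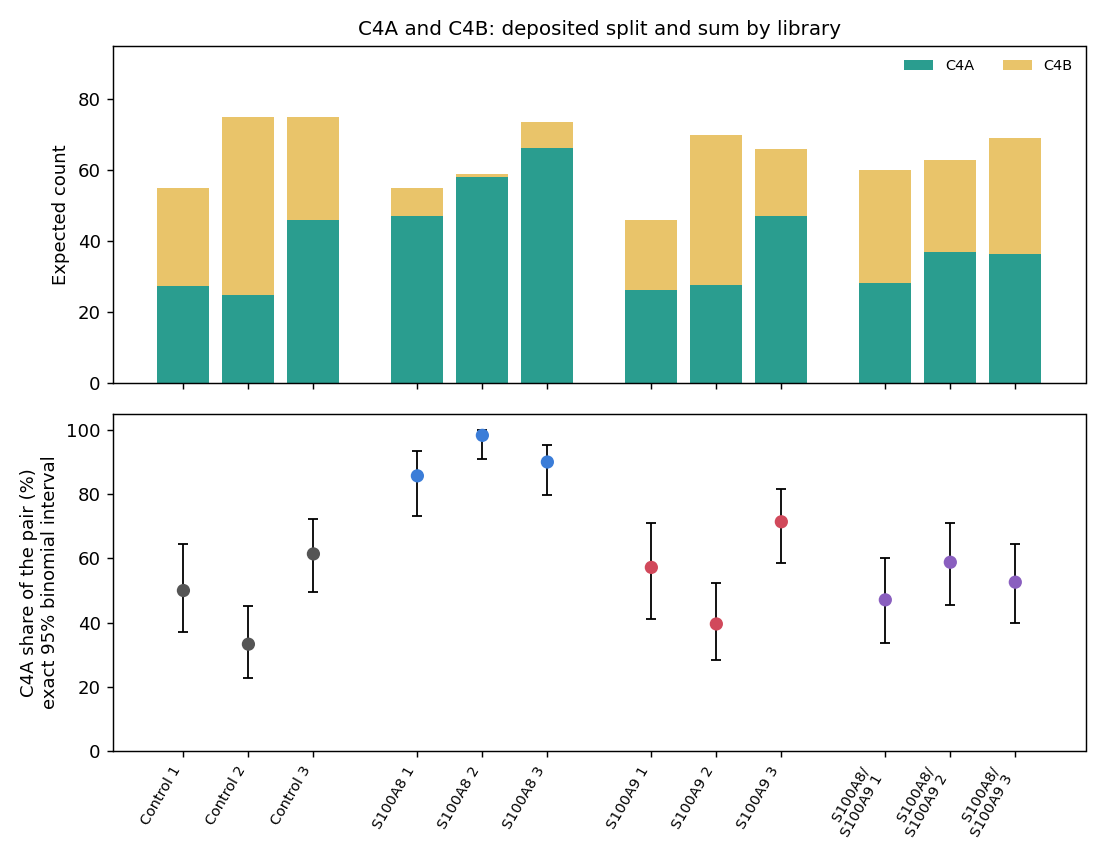
Expected counts of C4A and C4B stacked by library (upper panel, y axis from 0) and the C4A share of the pair with its exact 95% binomial interval (lower panel, percent). The sums overlap between the groups, at 46 to 75 counts, while the share is 85.7% to 98.3% after S100A8 and 33.3% to 71.4% elsewhere.

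Among the regulators no gene passed in any comparison. CFI, the factor I gene, stood at 11.89, 15.42 and 11.84 CPM in control and at 10.59, 10.51 and 10.92 CPM after S100A9, below all controls. After S100A8/S100A9 it stood at 11.23, 9.557 and 11.83 CPM, again below all controls, and after S100A8 it overlapped them at 10.8, 14.07 and 12.94 CPM. For S100A9 the log2 difference was -0.29 (95% interval -0.53 to -0.04), and for S100A8/S100A9 it was -0.25 (-0.50 to -0.01), with adjusted p = 0.77 and 0.88 in edgeR. Without control replicate 2, the highest control library, they were -0.15 and -0.12.

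CD55 had the narrowest intervals of the 9 genes. Its libraries stood between 59.74 CPM (S100A9 replicate 1) and 68.91 CPM (S100A8 replicate 2), with every pair of groups overlapping. Differences from control were 0.01 (-0.11 to 0.12) with S100A8, -0.03 (-0.14 to 0.08) with S100A9 and 0.04 (-0.07 to 0.16) with S100A8/S100A9. No change of CD55 from control was detected, and changes within these bounds could have been missed.

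**Figure D5:**
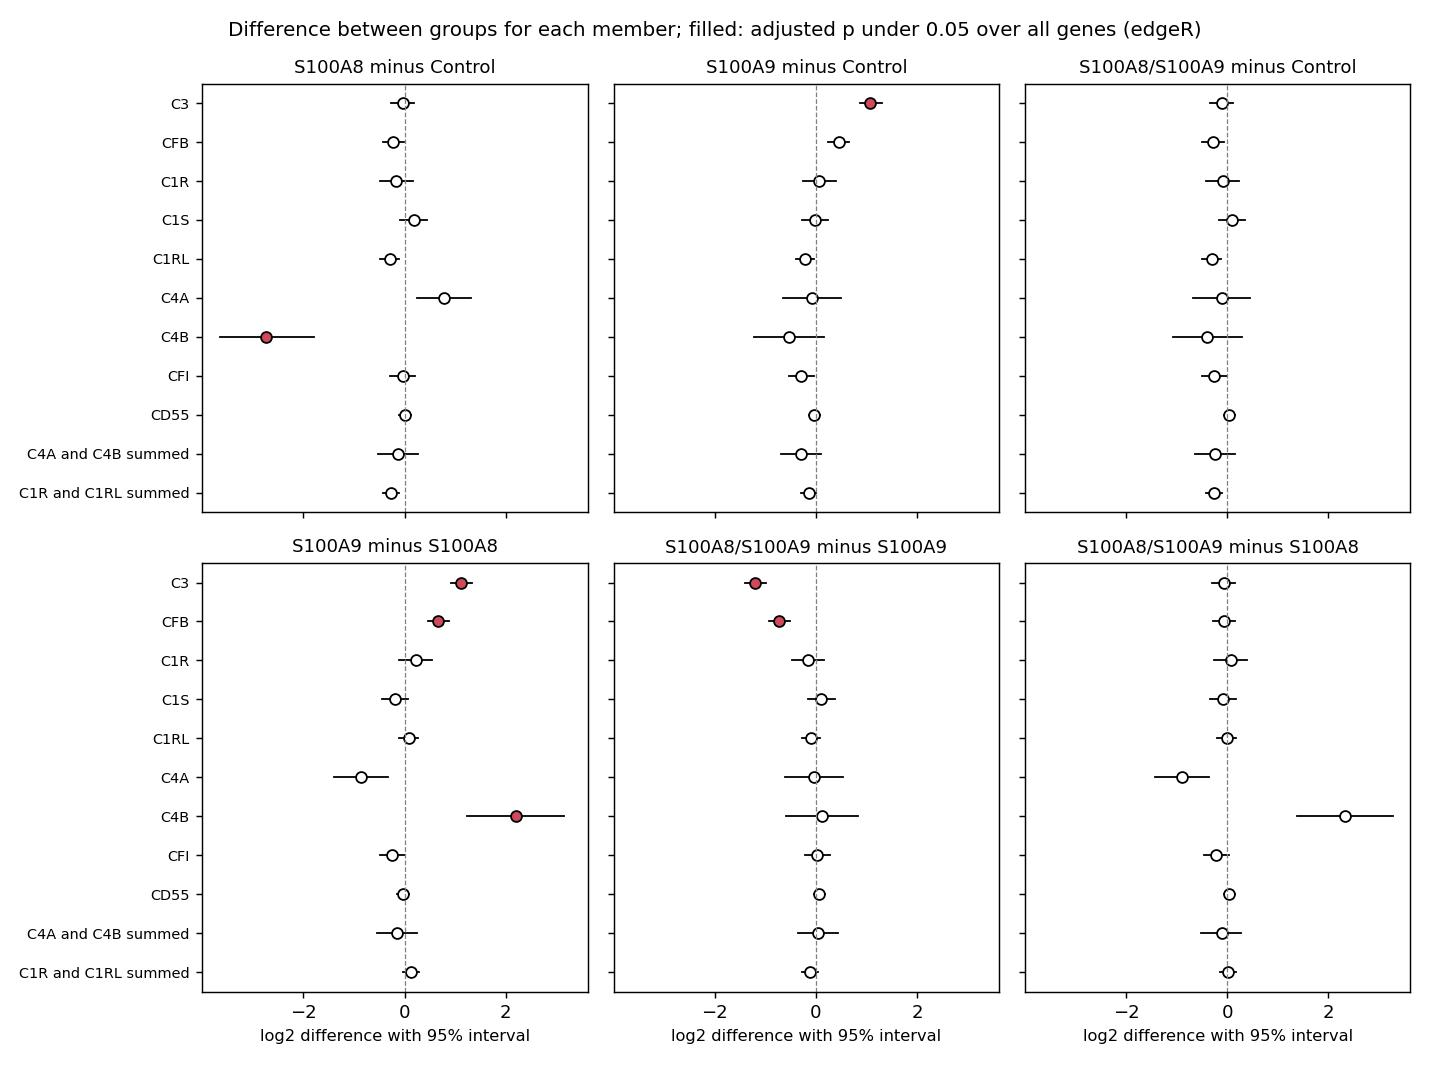
Log2 difference between groups (x axis) with its 95% interval for each member and for the 2 summed pairs (y axis), in 6 comparisons. Filled points passed at an adjusted p under 0.05 over all genes; these are C3 in 3 comparisons, CFB in 2 and C4B in 2, and neither sum passed in any.

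Pathways were set side by side by the medians of their members, with no test of the difference between them, and C3 was the only member that passed after S100A9 against control. There the 2 alternative genes had a median log2 difference of 0.76, the 5 classical genes -0.07 and the 2 regulators -0.16, where the median of all tested genes was near 0 (within 0.001 in each comparison). In S100A8/S100A9 against S100A9 the medians were -0.96, -0.03 and 0.05. In S100A9 against S100A8 they were 0.89, 0.08 and -0.14, and the classical genes ran from -0.86 (C4A) to 2.20 (C4B). After S100A8 they were -0.13, -0.16 and -0.02 from control, and after S100A8/S100A9 -0.19, -0.11 and -0.10.

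Set against all genes, 1 of the 9 members was called after S100A9 (C3), where 0.148% of tested genes were. After S100A8 1 was called (C4B). It was the only gene called, so the share of 0.00740% is C4B itself and offers no comparison. With the C4 genes summed, 0 genes were called there. After S100A8/S100A9 0 were called in edgeR, DESeq2 or limma, against 0%, and 3 had an unadjusted p under 0.05 in edgeR, against 5.60% of tested genes. Between arms 3 members were called in S100A9 against S100A8 (C3, CFB and C4B, background 0.185%). In S100A8/S100A9 against S100A9 2 were called (C3 and CFB, 0.252%). The call of C4B in S100A9 against S100A8 ended with the C4 genes summed. In S100A8/S100A9 against S100A8 0 were called by edgeR (0%), with 2 at an unadjusted p under 0.05 (4.43%). These 2 were C4A (-0.90) and C4B (2.33), and DESeq2 called C4B (adjusted p = 0.020). Summed, the C4 genes differed by -0.11 there (-0.51 to 0.28, adjusted p = 0.99 in edgeR).

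The libraries of some members did not overlap between groups. After S100A9, C3 and CFB lay wholly above control (6.25% of tested genes did) and C1RL and CFI wholly below (5.77%). After S100A8, C4A lay above (4.41%) and C4B, CFB and C1RL below (4.13%), and after S100A8/S100A9 CFB, C1RL and CFI lay below (5.40%). These 3 comparisons share the control libraries. S100A9 lay wholly above S100A8 for C3, CFB, C1R and C4B (6.41%) and below for C4A (6.09%). S100A8/S100A9 lay below S100A9 for C3 and CFB (6.53%), and above S100A8 for C4B (4.45%) and below it for C4A (4.55%). The list was chosen with earlier results of these data known.

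The rest of the pathway was followed as a list of 49 genes, of which 14 were tested and 14 had 0 counts in all libraries. The C1q genes C1QA, C1QB and C1QC, which encode the recognition subunits upstream of C1r and C1s, were among those at 0. The alternative pathway genes on this list, CFD and CFP, had means of 0.0238 and 0.434 CPM, and neither was tested. Of the terminal genes on the list only C5 was tested. In the 6 comparisons 0 of the 14 passed in edgeR, DESeq2 or limma, with 1 or 2 at an unadjusted p under 0.05 in each. The median log2 difference of the 14 was -0.04 for S100A8, -0.04 for S100A9 and -0.07 for S100A8/S100A9, each against control.

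Membrane regulators were the most abundant of this list. CD59, which blocks the membrane attack complex, stood at 156 ± 4.84 FPKM in control and 167 ± 5.76 after S100A9 (log2 difference on counts 0.08, -0.01 to 0.16). CD46, the cofactor of factor I on membranes, stood at 106 ± 1.79 and 101 ± 3.12 FPKM, and the mitochondrial C1q-binding protein gene C1QBP at 93.7 ± 3.64 and 96.2 ± 2.52 FPKM. Next came the chaperone gene CLU at 16.0 ± 2.89 and 22.8 ± 5.01 FPKM, the integrin subunit ITGB2 at 16.5 ± 1.47 and 14.2 ± 0.686, and the C5a receptor C5AR1 at 4.14 ± 0.201 and 4.53 ± 0.955 (SD, n = 3). None of these 6 passed. For CLU the difference in FPKM was not seen in the counts, at 14.9 ± 1.58 and 15.6 ± 1.12 CPM, which did not differ beyond their spread.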

How the data were processed

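The authors deposited 1 table for all 12 libraries which, per the file headers, gives an expected count and an FPKM value per gene. Per the labels' protocols, poly(A) RNA was reverse transcribed with random primers and sequenced on a NovaSeq. Which aligner, counter and annotation were used is not stated here. Mouse builds stand in the submitters' processing notes, although all IDs are human. The deposited expected counts are estimates, and 12% of entries were not whole. The deposited FPKM values are the authors' normalization for length and depth. Coordinates come from GENCODE 29 (GRCh38). Of the IDs, 19717 were named through a gene name table, 521 through GENCODE and 48 had no name. No label states strand-specific counting, so reads of antisense genes such as C4A-AS1 and C1RL-AS1 cannot be told apart from those of their partners.

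Counts were rounded, filtered with filterByExpr (minimum 10), scaled by TMM and fitted with edgeR 4.0.16 in R 4.3.3. The quasi-likelihood model (robust, no block) held all 12 libraries, 1 coefficient per group and 8 residual degrees of freedom. All tests are two-sided; p was adjusted by Benjamini-Hochberg over 13512 genes, with 0.05 as the threshold. Intervals at 95% came from the quasi-likelihood statistic. A count of 0 allows up to 3 counts, 0.189 CPM in the smallest library. This floor and the binomial intervals of the C4A share cover counting error only. The intervals of the log2 differences also hold the spread among libraries. Replicate pairs differed beyond sampling noise (chi-square per degree of freedom of at least 2.35). Alternatives used DESeq2 1.42.0, limma 3.58.1 on log2(FPKM + 1) and other settings. Named genes were all 9 members, the other complement genes past the threshold or among the 6 highest by FPKM, and the 5 genes most like C3 and CFB. The C1q genes, CFD, CFP and C5, and the overlapping C1R and C1RL as a sum, were added after values were seen. Members and lists were chosen with earlier results of these data known.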

Additional observations from a re-analysis of the deposited data

How the results depend on the processing

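C3 kept its calls in all 13 alternatives of its 3 called comparisons, and CFB in 12 of 13 for both of its called comparisons, the exception being limma on FPKM. C4B passed in 6 of 13 for S100A8 against control, and in 4 of 13 for S100A9 against S100A8. With both C4 genes summed, the latter difference turned from 2.20 to -0.15. Genes called after S100A8 numbered 1, and 2 with the replicate block, 0 without the robust option, 0 on the 6 libraries compared, 0 with limma on log2(FPKM + 1), 0 with the C4 genes summed and 0 to 2 with a library left out. After S100A9 there were 20, and 42 with the replicate block, 12 with limma and 11 to 22 with a library left out. After S100A8/S100A9 there were 0, with 757 genes at an unadjusted p under 0.05 in edgeR, and 2 with the replicate block, 1 with DESeq2, 2 on the 6 libraries and 0 to 2 with a library left out. S100A9 against S100A8 gave 25, and 69 with the replicate block, 10 with limma and 14 to 24 with a library left out. S100A8/S100A9 against S100A9 gave 34, and 71 with the replicate block, 13 with limma and 14 to 31 with a library left out. S100A8/S100A9 against S100A8 gave 0, with 598 at an unadjusted p under 0.05 in edgeR, and 2 with DESeq2. The causes were not tested. With limma on FPKM the C4 sum differed from control by -0.08 after S100A9 and -0.04 after S100A8/S100A9.

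Same-numbered libraries deviated together weakly at most, with correlations from -0.07 to 0.15 over the 6 comparisons. Libraries with different numbers had correlations from -0.16 to 0.10. In each comparison 3 or 4 of 6 libraries correlated best with the library of their own number. The highest same-numbered correlation was also above the highest of the others in every comparison. Pairing required every same-numbered correlation of a comparison to exceed 0.1. No comparison met this, so the numbers were not taken as pairs. Such a rule cannot exclude a weak pairing. Among members the replicate block added 1 call, CFB after S100A9 (0.45, adjusted p = 0.021 in edgeR). The choice of the C1R and C1RL sum was made after seeing the data. Depth limits C4 most, at 46 to 75 counts a library.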
